A study of Caenorhabditis elegans with 36 samples.

Results

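The genes described here are 32 of the 24931 named genes counted in whole Caenorhabditis elegans: precursors of small neuropeptides, with the enzymes and vesicle proteins that make and release them. They were chosen by gene name and by no cutoff on measured values, though with earlier results of these data known. The list was drawn up as 27 FMRFamide-like peptide (flp) genes and 5 processing genes. D1009.4, listed there as an flp gene, is annotated as nlp-14 in RefSeq and in Ensembl release 115, so the members are 26 flp genes (flp-1 to flp-22, flp-24, flp-25, flp-26 and flp-32), nlp-14, and egl-3, egl-21, sbt-1, ida-1 and unc-31. The gene annotated flp-27 is C25H3.5, and its values are given apart.

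Neuropeptides are cut from longer precursors inside dense core vesicles of neurons. In C. elegans the proprotein convertase EGL-3, folded with the help of its chaperone SBT-1 (a 7B2 protein), cuts each precursor after basic residues, and the carboxypeptidase EGL-21 trims those residues off. IDA-1, the worm IA-2 protein, is a membrane protein of these vesicles, and UNC-31 (CAPS) is needed for their release. The flp peptides end in an amidated Arg-Phe, act mostly on G-protein-coupled receptors, and are known for roles in feeding, egg laying, locomotion, sleep and fat metabolism.

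RNA was sequenced from whole animals in 36 libraries, 3 in each of 12 groups. The tested genotypes were mbl-1(tm1563), which carries a deletion in the gene for the splicing factor muscleblind, set against the wild type N2, and transgenic strains with 123 CUG repeats (123CUG), set against strains with 0 CUG repeats (0CUG). The integrated 123CUG transgenes are mgIs64 (strain 1) and mgIs84 (strain 2), in which the myo-3 promoter drives gfp with the repeat in its 3′ untranslated region in body wall muscle. Those of 0CUG are mgIs65 (strain 1) and mgIs85 (strain 2). Every genotype was collected as 2-day adults and at the stage labelled L4, the last larval stage. All animals were grown on HT115 bacteria carrying an empty RNAi vector. Each strain is 1 insertion, so the spread of its 3 libraries says nothing of how independently made strains would vary. Whether replicate libraries are separate cultures is not stated in the labels, and the p-values then reflect library-to-library spread alone, which may be technical.

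Libraries held 25239933 to 47903768 reads in named genes. Levels are given as CPM (reads of a gene per 1e6 counted reads) on 1 common TMM scale. Levels of single genes are compared with each other per kilobase of the gene length given in the authors' tables. Sums over several genes, their ratios and the share of a gene in a sum use CPM not divided by length. The mbl-1 and N2 libraries labelled L4 did not carry a larval profile: 14 moulting genes summed to 42.7 to 47.6 CPM in mbl-1 and 51.1 to 58.3 CPM in N2, against 3036 to 3983 CPM in the transgenic L4 libraries. They are called "labelled L4" throughout and are not set against the transgenic L4 animals. Replicate 3 of mbl-1 and of N2 stood apart among the 2-day adults: the flp genes summed to 136.6 CPM in mbl-1 replicate 3, against 312.8 and 236.3 CPM in the other mbl-1 libraries, and to 207.7 CPM in N2 replicate 3, against 106.0 and 126.3 CPM in the other N2 libraries. Reads on mbl-1 itself had a log2 difference of -0.75 ± 0.36 (SE, edgeR adjusted p = 0.910) between mbl-1 and N2 in 2-day adults and of -0.08 ± 0.15 (0.673) in the libraries labelled L4. The reads cover the whole gene and the extent of the deletion is not given in the sources used here, so these values do not check the genotype. Of the genes on the neuronal and tissue lists used below for comparison, 0 were at 0 in all 36 libraries.

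Members of the list were detected in most libraries but at very different levels. Per kilobase of gene length and averaged over all libraries, flp-6 (F07D3.2; WBcel235 chromosome V, 9471973 to 9473808) was highest at 84.1 CPM per kb, followed by sbt-1 (T03D8.3; V, 20827715 to 20828886) at 65.6, flp-22 at 46.5, flp-15 at 37.9 and egl-21 at 36.4 CPM per kb. flp-6 encodes peptides made in sensory neurons such as ASE and AFD. The lowest were unc-31 at 0.713 and flp-13, a peptide gene of the sleep-promoting neuron ALA, at 0.431 CPM per kb. flp-13 had 0 to 68 reads per library and 0 reads in 6 libraries, so little can be read from it. flp-4, flp-5 and flp-21 had 0 reads in 1 library each, and the other 28 members had reads in every library.

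The same gene led in one stage and trailed in the other. In transgenic 2-day adults flp-6 stood at 179.8 CPM per kb, above flp-22 at 41.4 and every other member, whereas in transgenic L4 animals it stood at 7.83 CPM per kb, below sbt-1 at 150.3, flp-15 at 102.0 and egl-21 at 77.0 CPM per kb. flp-6 reads made up 39.2% to 76.0% of all flp reads in transgenic adult libraries, against 0.366% to 2.97% in transgenic L4 libraries. In the mbl-1 libraries the share was 23% to 26.5%, against 31.6% to 42.2% in the N2 libraries, over both stage labels.

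**Figure D1:**
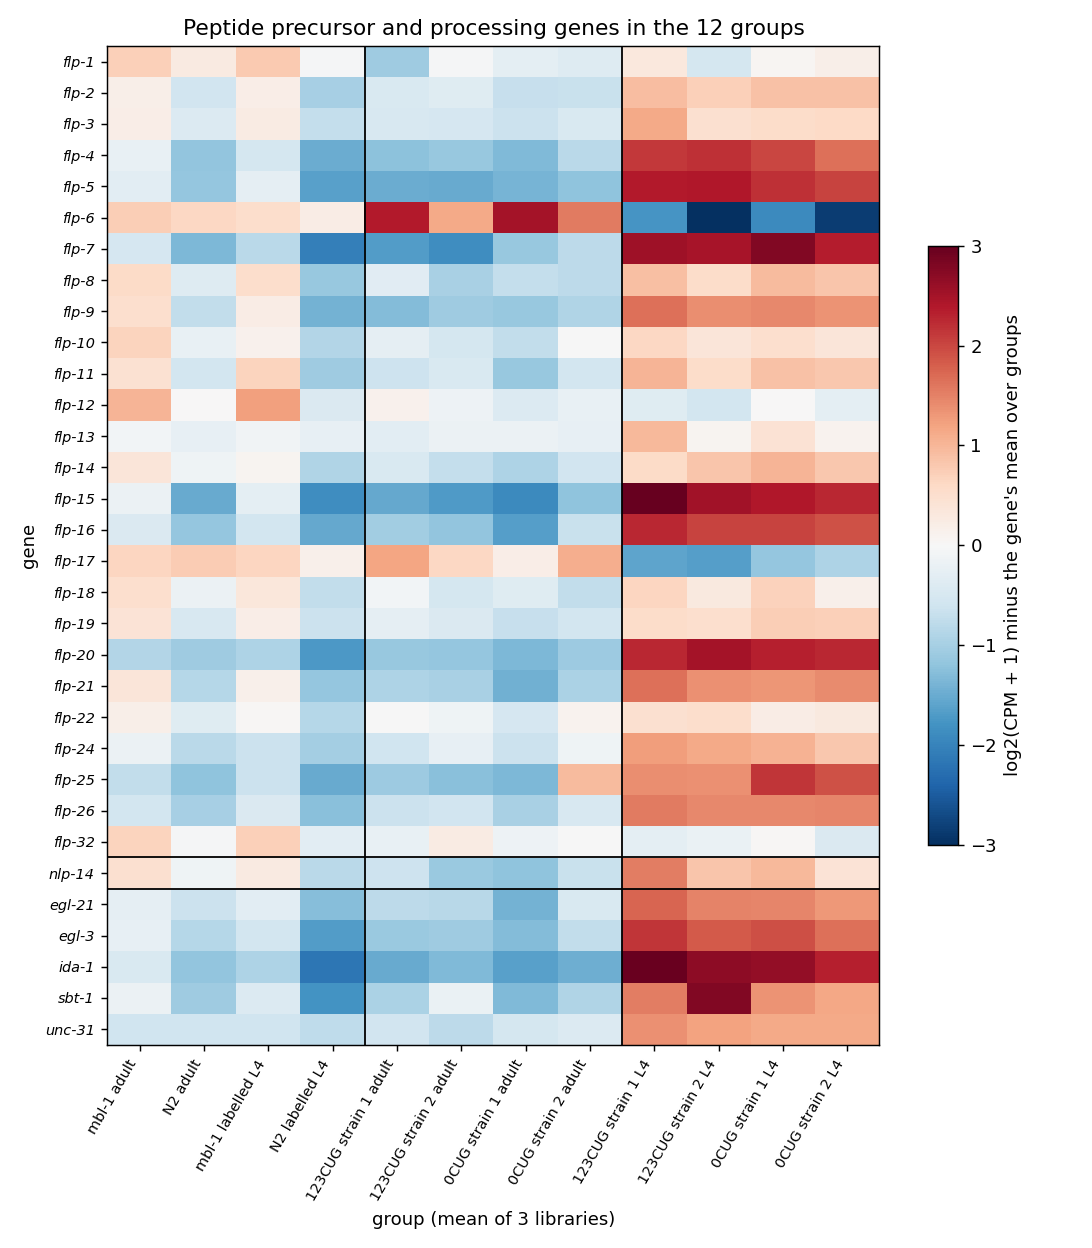
Mean level of each of the 32 genes (rows) in each of the 12 groups (columns), as log2(CPM + 1) minus the gene's own mean over the groups, with red above and blue below that mean. The 4 transgenic L4 columns on the right are red for most genes and most strongly blue for flp-6 and flp-17. flp-12 and flp-32 also averaged lower at transgenic L4 than in transgenic adults or in the mbl-1 and N2 libraries.

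The summed reads of peptide precursors and of processing genes did not keep a fixed ratio. Summed over the 5 processing genes, transgenic adult libraries held 41.5 to 92.1 CPM, against 323.0 to 567.4 CPM in transgenic L4 libraries. The 26 flp genes summed to 139.3 to 301.4 CPM in the adults, against 317.0 to 431.9 CPM at L4, so the flp to processing ratio was 2.05 to 6.16 in adult libraries, against 0.665 to 1.05 at L4. Without flp-6 the ratio was 1.2 to 1.77 in adults, against 0.660 to 1.04 at L4, and the stages still did not overlap. In the mbl-1 and N2 libraries the ratio without flp-6 was 1.67 to 1.88 in mbl-1, against 1.38 to 1.64 in N2. The mbl-1 libraries were above the N2 libraries in this ratio at both stage labels, replicate 3 of the adults included. These ratios are descriptions of read sums, with no test.

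**Figure D2:**
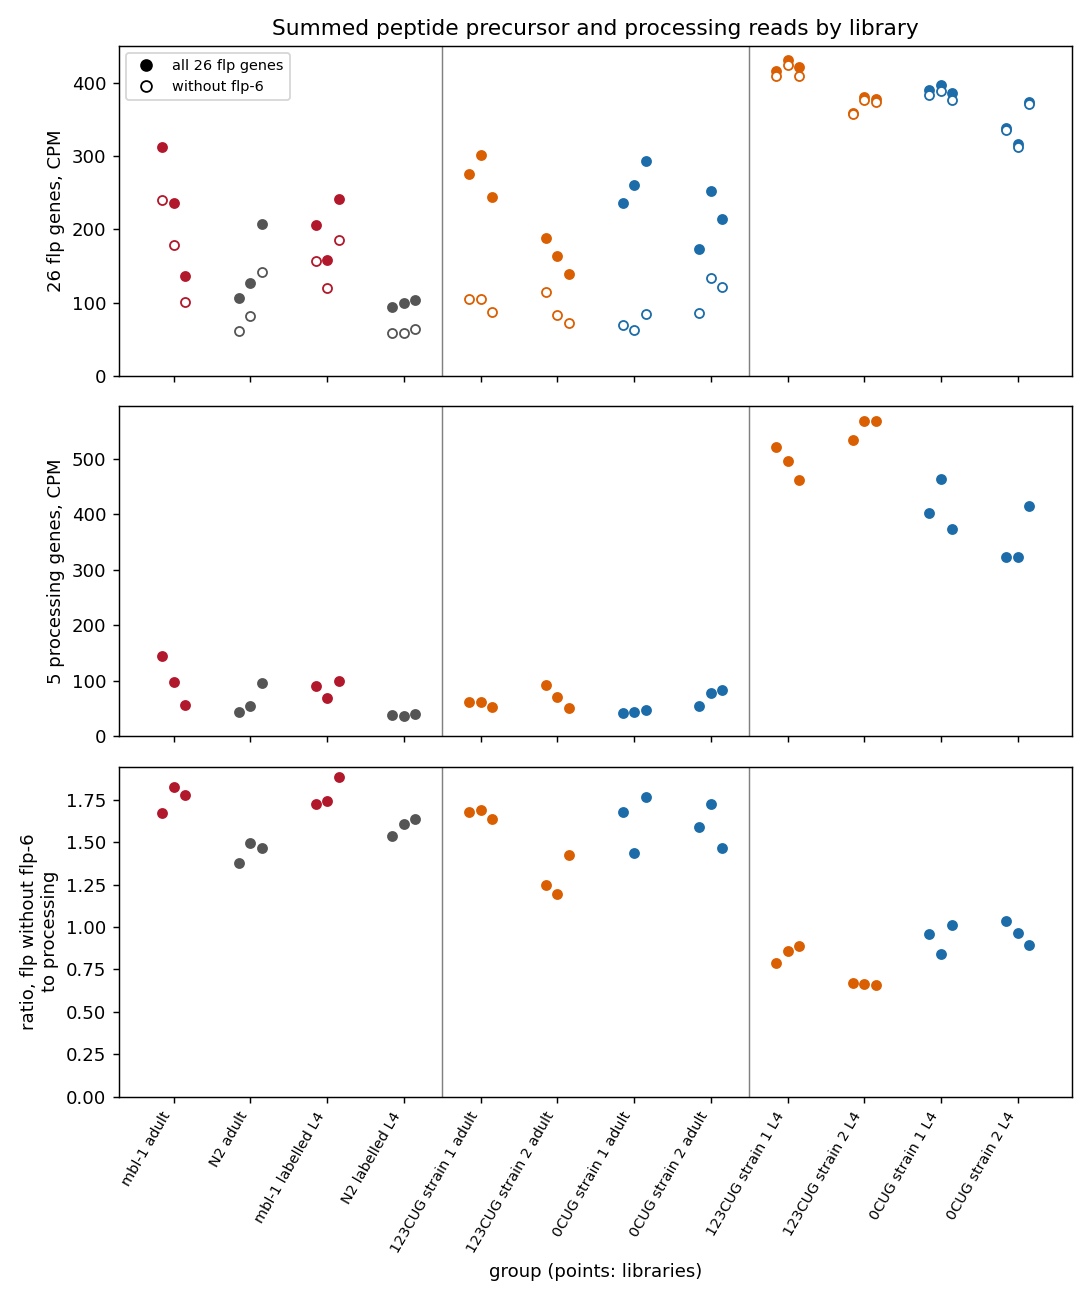
Reads summed over the 26 flp genes (top, open circles without flp-6), over the 5 processing genes (middle), and the ratio of flp genes without flp-6 to processing genes (bottom), per library in CPM or as a ratio, by group. In transgenic adults the open circles lie far below the filled ones, and the ratio is 1.2 to 1.77 in adult libraries, against 0.660 to 1.04 at L4.

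The comparison of 2-day adults with L4 animals within the transgenic strains asks how these genes change as the animal matures. Nearly all members were lower in adults, while 2 peptide genes, flp-6 and flp-17, were higher. Of the 32 members, 27 fell and 3 rose in the 123CUG strains (edgeR quasi-likelihood test, Benjamini-Hochberg adjusted p under 0.05), where 47.1% of all 17248 genes tested fell and 35.5% rose. In the 0CUG strains 27 fell and 2 rose, where 48.3% of all genes tested fell and 34.4% rose. The median log2 change of the members was -2.62 in 123CUG and -2.37 in 0CUG strains, beside -0.41 and -0.48 over all genes tested. In these whole-animal samples, less RNA of a gene per cell and a smaller share of its cells in the animal's RNA cannot be told apart.

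All 5 processing genes fell in both constructs. The vesicle protein gene ida-1 changed most of them: it stood at 4.004, 3.39 and 3.87 CPM in 123CUG strain 1 adults and 6.66, 4.01 and 2.77 CPM in strain 2 adults, against 108.4, 107.9 and 102.5 CPM and 85.9, 84.4 and 91.4 CPM in the L4 animals of the same strains. Every adult library was far below every L4 library, and the log2 change was -4.64 ± 0.24 (SE, edgeR adjusted p = 1.80e-13). In 0CUG strains it had 3.64, 3.42 and 3.28 CPM in strain 1 adults and 1.15, 6.31 and 4.33 CPM in strain 2 adults, against 83.7, 93.8 and 72.3 CPM and 60.1, 64.7 and 79.41 CPM at L4, a change of -4.45 ± 0.24. The convertase gene egl-3 changed by -3.26 ± 0.16 in 123CUG and -3.0 ± 0.16 in 0CUG strains, its chaperone gene sbt-1 by -2.89 ± 0.14 and -2.55 ± 0.14, unc-31 by -2.82 ± 0.23 and -2.25 ± 0.22, and the carboxypeptidase gene egl-21 by -2.57 ± 0.11 and -2.47 ± 0.11. The adjusted p of these 5 genes was at most 6.05e-10 in either construct, with no overlap between adult and L4 libraries. egl-3 had 12.8, 13.6 and 12.2 CPM in strain 1 adults and 16.9, 11.6 and 11.02 CPM in strain 2 adults, against 149.5, 122.1 and 118.7 CPM and 102.8, 109.3 and 104.9 CPM at L4 of the 123CUG strains. In 0CUG strains egl-3 had 13.3, 9.94 and 9.92 CPM in strain 1 adults and 11.6, 17.1 and 22.02 CPM in strain 2 adults, against 116.7, 136.9 and 85.4 CPM and 77.4, 81.2 and 121.2 CPM at L4. unc-31, the least abundant of the processing genes, had 1.41, 1.41 and 0.953 CPM in strain 1 adults and 1.03, 1.07 and 0.720 CPM in strain 2 adults, against 9.39, 6.89 and 7.01 CPM and 7.01, 7.32 and 6.005 CPM at L4 of the 123CUG strains, and 0.925, 1.35 and 1.70 CPM in strain 1 adults and 1.05, 1.67 and 1.90 CPM in strain 2 adults, against 4.63, 6.97 and 7.71 CPM and 5.34, 5.93 and 7.77 CPM at L4 of the 0CUG strains. egl-21 had 24.8, 28.3 and 23.6 CPM in 123CUG strain 1 adults and 33.9, 22.5 and 17.8 CPM in strain 2 adults, and its other values stand beside the comparisons of constructs and strains. Among 8 other processing genes fixed as a list, such as the amidating enzyme genes pghm-1 and pgal-1, all 8 fell in both constructs, with medians of -1.99 and -1.78.

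Among the peptide precursors, flp-7, whose peptides act through NPR-22 on fat metabolism, changed most in 123CUG strains. It had 1.45, 0.686 and 0.615 CPM in strain 1 adults and 0.957, 0.919 and 0.108 CPM in strain 2 adults, against 33.9, 40.1 and 29.7 CPM and 31.1, 33.7 and 33.6 CPM at L4. Every adult library was far below every L4 library, and the log2 change was -5.51 ± 0.30 (edgeR adjusted p = 3.73e-14), against -4.15 ± 0.26 in 0CUG strains. flp-15, which encodes ligands of the receptor NPR-3, changed by -5.14 ± 0.24 in 123CUG and -4.68 ± 0.24 in 0CUG strains. In 123CUG strains it had 1.93, 2.21 and 0.983 CPM in strain 1 adults and 1.62, 1.35 and 1.297 CPM in strain 2 adults, against 61.0, 62.1 and 59.8 CPM and 42.3, 45.4 and 43.2 CPM at L4. In 0CUG strains it had 0.746, 1.03 and 1.48 CPM in strain 1 adults and 0.699, 2.38 and 4.07 CPM in strain 2 adults, against 41.2, 44.3 and 35.5 CPM and 37.95, 32.7 and 39.1 CPM at L4. All 12 adult libraries lay far below all 12 L4 libraries. flp-5 had 0, 1.07 and 1.94 CPM in 123CUG strain 1 adults and 1.21, 1.16 and 0.504 CPM in strain 2 adults, against 26.2, 30.98 and 27.1 CPM and 29.1, 26.1 and 30.1 CPM at L4. Its library with 0 reads allows a level of up to 0.111 CPM (3 reads, counting error only), and the log2 change was -4.90 ± 0.40.

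In 0CUG strains flp-21, which encodes a ligand of the receptor NPR-1, and flp-20, a peptide gene of touch neurons, were among the 4 largest falls. flp-21 had 0, 0.299 and 0.257 CPM in strain 1 adults and 0.210, 0.634 and 1.16 CPM in strain 2 adults, against 6.90, 7.604 and 6.52 CPM and 7.78, 6.06 and 8.67 CPM at L4, a log2 change of -4.42 ± 0.41 (edgeR adjusted p = 1.76e-10). flp-20 had 1.37, 0.834 and 1.06 CPM and 0.455, 2.14 and 1.98 CPM in the same adults, against 22.1, 26.4 and 29.2 CPM and 25.7, 20.3 and 27.3 CPM at L4, a change of -4.39 ± 0.25. In both genes adult and L4 libraries did not overlap. The smallest fall was that of flp-22, at -0.68 ± 0.12 in 123CUG and -0.56 ± 0.12 in 0CUG strains. flp-22 had 25.5, 23.9 and 20.4 CPM in strain 1 adults and 27.9, 18.9 and 16.6 CPM in strain 2 adults, against 35.9, 33.4 and 29.1 CPM and 31.2, 35.1 and 36.2 CPM at L4 in 123CUG strains. In 0CUG strains it had 14.8, 13.5 and 20.3 CPM in strain 1 adults and 20.5, 28.8 and 26.6 CPM in strain 2 adults, against 27.7, 27.8 and 27.2 CPM and 28.3, 28.1 and 29.1 CPM at L4, where adult and L4 libraries overlapped through strain 2 replicate 2. flp-1, a peptide gene of the AVK interneurons, and flp-32 were not called in either construct, with log2 changes of -0.91 and 0.42 in 123CUG and -0.78 and 0.26 in 0CUG strains.

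flp-6 went the other way. It had 170.4, 196.2 and 156.0 CPM in 123CUG strain 1 adults, 74.0, 80.01 and 66.8 CPM in 123CUG strain 2 adults, 165.9, 197.9 and 209.3 CPM in 0CUG strain 1 adults and 87.6, 117.7 and 91.8 CPM in 0CUG strain 2 adults. The L4 libraries of the same strains held 6.80, 7.29 and 12.5 CPM, 1.32, 3.94 and 3.26 CPM, 6.90, 8.63 and 8.57 CPM, and 3.02, 5.10 and 2.94 CPM. All 12 adult libraries were above all 12 L4 libraries, and flp-6 rose 21.1-fold in 123CUG strains (log2 4.4 ± 0.20, edgeR adjusted p = 1.16e-14) and 23.7-fold in 0CUG strains (4.57 ± 0.20, 5.78e-15). Within single strains the log2 change ran between 4.21 and 4.64.

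flp-17 (C52D10.11; IV, 17190204 to 17191891), made in the BAG neurons and known to inhibit egg laying through the receptor EGL-6, rose as well. It had 8.97, 8.99 and 13.1 CPM in 123CUG strain 1 adults and 6.62, 6.86 and 6.38 CPM in strain 2 adults, against 0.471, 0.326 and 1.16 CPM and 0.395, 0.717 and 0.645 CPM at L4, a 12.4-fold rise (log2 3.64 ± 0.32, edgeR adjusted p = 5.75e-11). In 0CUG strains it had 3.91, 4.55 and 5.81 CPM and 6.26, 12.3 and 10.3 CPM in adults, against 1.21, 1.74 and 0.696 CPM and 0.836, 2.39 and 1.70 CPM at L4, a 4.52-fold rise (log2 2.18 ± 0.29, 1.61e-07). Adult and L4 libraries did not overlap in either construct. flp-10, which also signals through EGL-6, moved the opposite way, with log2 changes of -1.02 ± 0.12 in 123CUG and -0.94 ± 0.12 in 0CUG strains.

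The remaining rise, that of flp-12 in 123CUG strains, was small. It had 7.67, 11.7 and 6.02 CPM in strain 1 adults and 7.80, 7.02 and 5.55 CPM in strain 2 adults, against 6.23, 5.40 and 5.47 CPM and 4.61, 5.61 and 4.58 CPM at L4, with overlap between the stages. The log2 change was 0.43 ± 0.18 (edgeR adjusted p = 0.0305), and it was called in 4 of 12 fits that each left out 1 library, with an adjusted p of 0.237 without 123CUG strain 1 adult replicate 2 (log2 0.24). It was not called by DESeq2 (0.0611), with RLE scaling or with no filter. In 0CUG strains the change was -0.30 ± 0.18 and was not called.

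Other gene lists moved with stage too. Of 26 pan-neuronal genes 24 fell and 2 rose in both constructs, with medians of -3.09 in 123CUG and -3.11 in 0CUG strains. Their summed reads fell less, from 687.0 to 848.9 CPM in L4 libraries to 404.6 to 581.2 CPM in adult libraries. Of 32 other neuropeptide genes 22 fell and 3 rose in 123CUG, and 24 fell and 3 rose in 0CUG strains, with medians of -2.61 and -2.23. Of 15 flp receptor genes 13 and 12 fell, with medians of -2.56 and -2.23. The 10 genes of dense core vesicle biogenesis summed to 335.0 to 456.2 CPM in adult and 428.1 to 532.9 CPM in L4 libraries. Another 4 flp genes, not members, summed to 20.02 to 46.16 CPM in adult and 43.2 to 57.77 CPM in L4 libraries. In both of these sums the stages overlapped, within 0CUG strains though not within 123CUG strains. Of 11 neurotransmitter genes tested 6 fell and 2 rose in 123CUG, and 7 fell and 2 rose in 0CUG strains, with medians of -3.16 and -2.67. Their summed level went the other way, at 228.2 to 369.1 CPM in adult and 154.6 to 171.1 CPM in L4 libraries. tbh-1 and tdc-1, the octopamine and tyramine synthesis genes, held 62.6% to 92.2% of it in adults and 20.2% to 41.7% at L4. The other genes of that list summed to 28.7 to 108.6 CPM in adult and 93.9 to 136.5 CPM in L4 libraries, with overlap. cha-1 and unc-17, also fixed for that list, were not matched by symbol and are in none of its values. Body wall muscle genes had medians of -2.27 and -2.24, while all 19 oocyte and embryo genes rose, with medians of 5.66 and 6.35. Muscle genes summed to 2231 to 4235 CPM in adult and 7956 to 13200 CPM in L4 libraries, and oocyte and embryo genes to 5789 to 8015 CPM in adult and 87.4 to 235.4 CPM in L4 libraries. Yolk genes summed to 61420 to 179800 CPM in adult and 1597 to 7637 CPM in L4 libraries. The part of tissue makeup in the members' changes was not tested. flp-27, which is not a member, fell with log2 changes of -1.85 ± 0.33 and -3.13 ± 0.35.

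**Figure D3:**
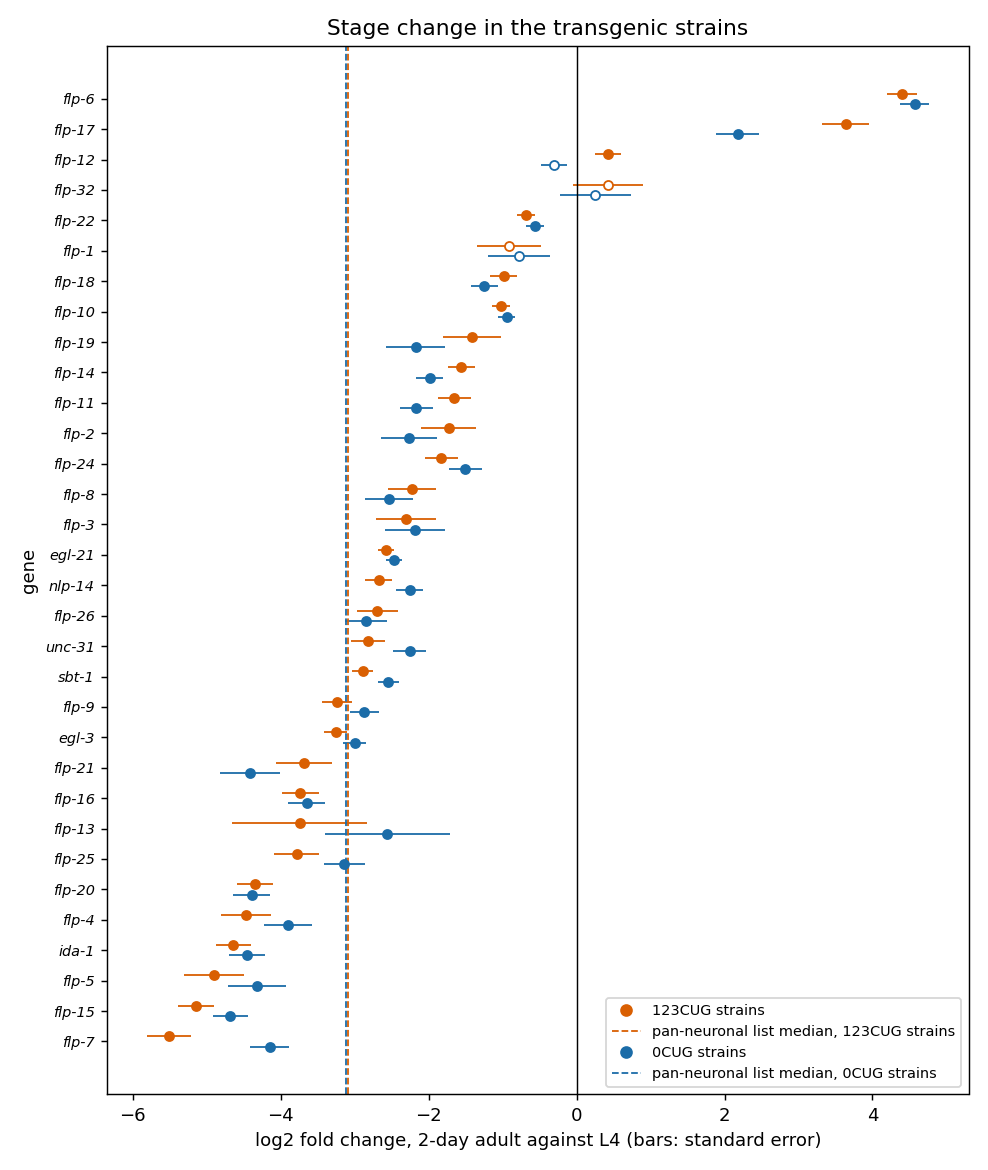
Log2 fold change of each of the 32 genes in 2-day adults against L4 animals, with standard errors, in 123CUG and in 0CUG strains, where filled circles passed the test and open circles did not. flp-6 and flp-17 lie far to the right of 0, most genes lie between -1 and -5.5, and the dashed lines mark the pan-neuronal medians of -3.09 and -3.11.

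The comparison of mbl-1 with N2 asks what loss of the splicing factor does to these genes. In the libraries labelled L4, 30 of 31 members tested rose in mbl-1 and 0 fell (edgeR adjusted p under 0.05), where 29.7% of all 13264 genes tested rose and 21.7% fell. flp-13 did not pass the filter on low counts. The median log2 difference was 1.82 over the 25 flp genes tested, 1.18 over the 5 processing genes and 1.45 over all members tested, beside 0.03 over all genes tested. The members passed a filter on low counts, so the count and medians cover the 31 tested genes and not flp-13.

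flp-8 had the largest rise, 8.19-fold: it stood at 3.65, 2.94 and 4.26 CPM in mbl-1, against 0.233, 0.346 and 0.754 CPM in N2 (log2 3.03 ± 0.34, edgeR adjusted p = 4.73e-06). The NPR-1 ligand gene flp-21 stood at 2.82, 1.99 and 2.87 CPM in mbl-1, against 0.442, 0.272 and 0.609 CPM in N2 (2.52 ± 0.32, edgeR adjusted p = 1.82e-05). The groups did not overlap in either gene. flp-7 had 2.23, 1.69 and 3.42 CPM in mbl-1, against 0.628, 0.296 and 0.464 CPM in N2 (2.36 ± 0.35, edgeR adjusted p = 6.52e-05), and flp-15 had 6.62, 3.52 and 5.94 CPM in mbl-1, against 1.42, 0.864 and 1.19 CPM in N2 (2.18 ± 0.26, edgeR adjusted p = 1.01e-05). Again every mbl-1 library was above every N2 library, with mbl-1 replicate 2 the lowest of its group in all 4 genes.

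Of the processing genes, sbt-1 stood at 25.2, 19.5 and 26.7 CPM in mbl-1, against 8.84, 7.40 and 9.56 CPM in N2 (log2 1.45 ± 0.15). ida-1 stood at 6.96, 5.80 and 5.97 CPM in mbl-1, against 1.65, 2.42 and 2.09 CPM in N2 (1.59 ± 0.19). egl-3 stood at 19.4, 15.8 and 22.8 CPM in mbl-1, against 8.39, 8.49 and 8.29 CPM in N2 (1.18 ± 0.14). In these 3 genes the groups did not overlap, and the largest edgeR adjusted p was 1.11e-05. The carboxypeptidase gene egl-21 stood at 38.4, 26.8 and 41.996 CPM in mbl-1, against 18.1, 17.5 and 18.2 CPM in N2 (0.97 ± 0.14, edgeR adjusted p = 4.78e-05). unc-31 was the member tested that did not pass, at 1.18, 1.06 and 1.39 CPM in mbl-1, against 1.05, 0.666 and 1.25 CPM in N2 (0.27 ± 0.32, edgeR adjusted p = 0.484), and its groups overlapped.

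The 3 smallest rises were those of flp-6 at 0.29 ± 0.12, flp-24 at 0.43 ± 0.17 and flp-17 at 0.57 ± 0.19. They were close to the threshold (edgeR adjusted p = 0.0471, 0.0485 and 0.0217) and were called in 1, 1 and 2 of the 6 fits that each left out 1 library. DESeq2 and RLE scaling called neither flp-6 nor flp-24. The values were 0.19 for flp-6 and 0.32 for flp-17 without mbl-1 replicate 3, and 0.28 for flp-24 without mbl-1 replicate 1. flp-6 and flp-17 are also the genes that rose with stage in the transgenic strains. The most abundant flp gene after flp-6, flp-22, stood at 24.3, 18.7 and 28.9 CPM in mbl-1, against 11.8, 13.1 and 12.7 CPM in N2 (0.91 ± 0.14, edgeR adjusted p = 0.000109), with no overlap. The 12 flp genes on the X chromosome had a median of 1.90 and the 13 tested on autosomes a median of 1.15. All of them were called, so this is a difference between medians with no test. No medians over all genes on X or on autosomes are set beside it.

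Several members share ground with other genes, and the strand setting of the counts is not given in the sources used here. flp-2 and flp-3 lie within the antisense gene W07E11.1, which had 102439 reads over all libraries, against 3624 and 1741 for these flp genes, and W07E11.1 moved by -0.85 ± 0.20 where flp-2 and flp-3 rose by 1.92 ± 0.27 and 2.07 ± 0.33. flp-1 lies within the antisense gene daf-10, and flp-11 overlaps 71 bases of tmem-135, which rose by 0.70 ± 0.15, beside 2.11 ± 0.19 for flp-11. The values of these 4 flp genes are uncertain.

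The neuronal genes on the other lists did not all move this way. Of 25 pan-neuronal genes tested 9 rose and 2 fell, with a median of 0.29, and they summed to 493.6 to 512.9 CPM in mbl-1, against 449.2 to 504.1 CPM in N2. Of 28 other neuropeptide genes 24 rose and 0 fell (median 1.32), of 8 other processing genes 5 rose and 2 fell (0.39), of 10 genes of dense core vesicle biogenesis 4 rose and 1 fell (-0.00), and of 10 flp receptor genes 1 rose and 1 fell (0.07). Of 6 neurotransmitter genes tested 2 rose and 2 fell (0.34), while their sum was lower in mbl-1, at 314.6 to 422.9 CPM, against 469.5 to 540.5 CPM in N2, with no overlap. tbh-1 and tdc-1 held 84.2% to 91.2% of it in mbl-1 and 94.2% to 94.8% in N2. The other genes of that list were higher in mbl-1, at a sum of 37.2 to 49.8 CPM, against 26.5 to 31.3 CPM in N2, with no overlap. Genes of other tissues moved as well: 17 of 25 body wall muscle genes (median 1.06) and 10 of 12 intestine genes (0.69) rose, and 15 of 19 oocyte and embryo genes fell (-0.64). Body wall muscle genes summed to 5776 to 8188 CPM in mbl-1, against 2585 to 2840 CPM in N2, and oocyte and embryo genes to 8383 to 11460 CPM in mbl-1, against 11330 to 14960 CPM in N2. The part of these tissues in the members' rises was not tested. flp-27 rose by 1.68 ± 0.36 (edgeR adjusted p = 0.00158).

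In 2-day adults 0 of 31 members tested were called between mbl-1 and N2, where 0.0% of 13286 genes were called in either direction (695 genes had an unadjusted p under 0.05). DESeq2 called 1 member, flp-21, and among all genes 45 as higher and 62 as lower. The members' log2 differences ran between -0.12 for flp-17 and 2.03 for flp-21, with a median of 0.93, and 30 of 31 were above 0. sbt-1 stood at 40.01, 28.9 and 15.5 CPM in mbl-1, against 9.34, 13.2 and 22.2 CPM in N2, egl-3 at 37.2, 22.5 and 12.5 CPM in mbl-1, against 10.04, 10.6 and 25.97 CPM in N2, and flp-21 at 4.10, 3.10 and 2.105 CPM in mbl-1, against 0.378, 0.787 and 1.13 CPM in N2. Replicate 3 was the lowest mbl-1 library and the highest N2 library in each of these genes, and in sbt-1 and egl-3 the groups overlapped through it. In flp-21 the groups did not overlap (log2 2.03 ± 0.48, edgeR adjusted p = 0.684). flp-6 stood at 72.3, 57.8 and 36.2 CPM in mbl-1, against 44.7, 44.3 and 65.6 CPM in N2. flp-15 stood at 10.7, 4.59 and 2.32 CPM in mbl-1, against 0.698, 1.26 and 3.26 CPM in N2. flp-22 stood at 33.04, 29.3 and 16.4 CPM in mbl-1, against 13.3, 15.1 and 25.04 CPM in N2. In these 3 peptide genes too replicate 3 was the lowest of mbl-1 and the highest of N2, and the groups overlapped. ida-1 stood at 15.7, 7.36 and 3.96 CPM in mbl-1, against 2.21, 4.07 and 8.88 CPM in N2. egl-21 stood at 49.2, 38.6 and 23.3 CPM in mbl-1, against 21.6, 25.99 and 38.2 CPM in N2. unc-31 stood at 1.99, 0.639 and 1.07 CPM in mbl-1, against 1.19, 0.919 and 1.58 CPM in N2. ida-1 and egl-21 followed the same order of libraries, and unc-31 did not in mbl-1, where replicate 2 was the lowest.

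With replicate 3 of both groups left out, a setting chosen after seeing the data, 27 of 31 members rose and 0 fell, where 21.7% of 13616 genes rose and 10.7% fell. The largest differences were then those of flp-15 at 2.97, flp-7 at 2.74 and flp-21 at 2.62 (edgeR adjusted p = 0.00874, 0.0142 and 0.00782). Those not called were unc-31 at 0.33, flp-17 at 0.47, flp-20 at 1.09 and flp-26 at 1.15. Each group then held 2 libraries. Between the 2-day adult and the labelled L4 libraries, 0 members were called in mbl-1, where 0.563% of 14027 genes were called (2066 at an unadjusted p under 0.05, and 0 members by DESeq2), and 0 in N2, where 0.0% were (2098 genes had an unadjusted p under 0.05, and DESeq2 called 8 genes as higher, 5 as lower and 0 members). The median log2 change of the members was 0.14 in mbl-1 and 0.70 in N2, and the difference between the genotypes in this change was called for 0 members, where 0.00713% of genes were called (1364 at an unadjusted p under 0.05, and 0 members by DESeq2). Without replicate 3 of both adult groups 6 members rose in mbl-1 adults and 0 fell, where 14.1% of 14414 genes rose and 6.38% fell: flp-6, flp-10, flp-14, flp-24, egl-3 and ida-1, by 0.45 to 0.88.

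**Figure D4:**
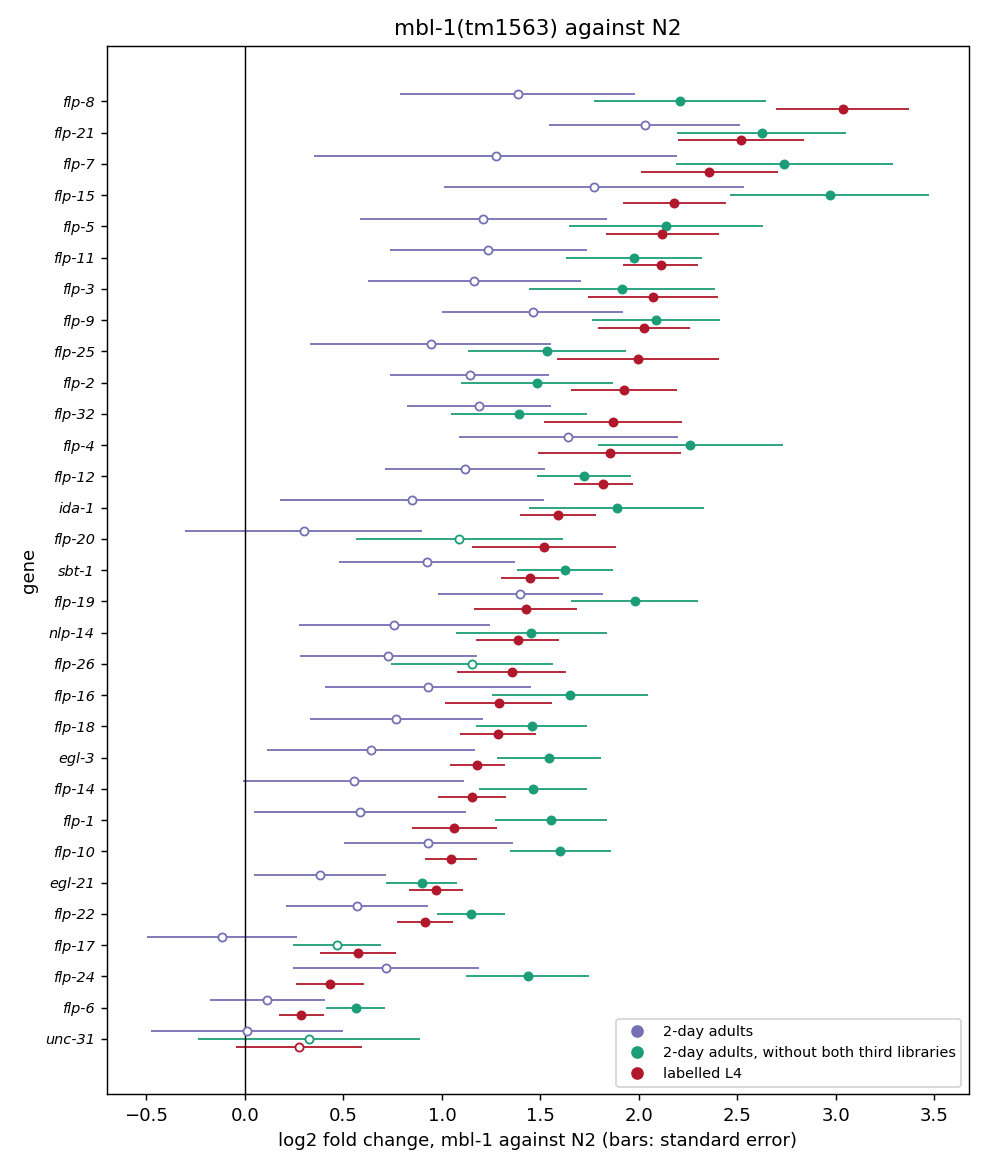
Log2 fold change of 31 genes in mbl-1 against N2, with standard errors, in 2-day adults, in 2-day adults without replicate 3 of both groups, and in the libraries labelled L4, where filled circles passed the test and open circles did not. Without both replicates 3 the adult values lie near those labelled L4, and with them they are lower and open throughout.

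The comparison of 123CUG with 0CUG animals asks what the repeat RNA in body wall muscle does to these genes, and it is the mean over both strains of each construct. At L4, 9 of 32 members were higher in 123CUG and 1 was lower, where 5.09% of 16210 genes tested rose and 9.36% fell (edgeR adjusted p under 0.05). The median log2 difference of the members was 0.14, beside 0.02 over all genes tested. The rises were small except that of sbt-1: flp-4 (0.38), flp-5 (0.31), flp-15 (0.45), flp-22 (0.28), flp-24 (0.31), nlp-14 (0.57), egl-21 (0.27), ida-1 (0.38) and sbt-1 (0.93). In the 12 fits that each left out 1 library, flp-24 was called in 3, flp-5 in 6 and flp-22 in 9. The flp-24 value was 0.26 (edgeR adjusted p = 0.125) and the flp-5 value 0.24 (0.113) without 0CUG strain 2 replicate 2, and the flp-22 value 0.23 (0.0634) without 123CUG strain 1 replicate 1. With all 36 libraries in 1 fit, sbt-1 kept its call and the other 9 members lost theirs. Each 123CUG strain was also set against each 0CUG strain, where 16.8% and 13.6% of genes were called for 123CUG strain 1 against 0CUG strain 1 and strain 2, and 8.78% and 3.78% for 123CUG strain 2. In all 4 of these pairs 0 members rose, where 0.117% of genes did, and 1 fell, flp-25, where 1.43% of genes did.

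flp-25 (K04H4.7; III, 9361528 to 9365360) had 8.65, 9.25 and 9.54 CPM in 123CUG strain 1 and 10.198, 8.54 and 7.97 CPM in 123CUG strain 2, against 16.98, 15.9 and 15.4 CPM in 0CUG strain 1 and 13.4, 11.2 and 15.6 CPM in 0CUG strain 2. All 6 libraries of 123CUG were below all 6 of 0CUG. The log2 difference was -0.68 ± 0.11 (edgeR adjusted p = 0.000249), and between -0.81 and -0.54 in the 4 strain pairs. It was called in each of 12 fits that left out 1 library, and was not called with all 36 libraries in 1 fit (-0.70, edgeR adjusted p = 0.178).

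The sbt-1 rise came mainly from 1 strain. It had 99.4, 99.6 and 84.6 CPM in 123CUG strain 1 and 211.8, 232.5 and 238.1 CPM in 123CUG strain 2, against 74.1, 91.2 and 85.7 CPM in 0CUG strain 1 and 73.1, 65.7 and 80.2 CPM in 0CUG strain 2. 123CUG strain 2 stood far above the other 3 strains, and 123CUG strain 1 overlapped 0CUG strain 1. The pooled log2 difference was 0.93 ± 0.07 (edgeR adjusted p = 9.96e-09). 123CUG strain 2 differed by 1.49 and 1.62 from the 0CUG strains and 123CUG strain 1 by 0.25 and 0.38, of which 0.25 was not called. Of its overlapping neighbours, sbt-1 shares 26 bases with the antisense gene grl-14, which had 538 reads in all, against 61565 for sbt-1.

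nlp-14, an orcokinin-type peptide gene, and flp-15 differed mainly through the other strain. nlp-14 had 16.5, 10.8 and 13.6 CPM in 123CUG strain 1 and 8.06, 7.73 and 8.07 CPM in 123CUG strain 2, against 7.87, 9.26 and 9.54 CPM in 0CUG strain 1 and 5.21, 5.698 and 6.19 CPM in 0CUG strain 2 (0.57 ± 0.13, edgeR adjusted p = 0.00389). flp-15 had 61.0, 62.1 and 59.8 CPM in 123CUG strain 1 and 42.3, 45.4 and 43.2 CPM in 123CUG strain 2, against 41.2, 44.3 and 35.5 CPM in 0CUG strain 1 and 37.95, 32.7 and 39.1 CPM in 0CUG strain 2 (0.45 ± 0.07, edgeR adjusted p = 0.000189). In both genes strain 2 of 123CUG overlapped 0CUG strain 1 and was not called against either 0CUG strain.

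ida-1 and egl-21 were also higher in 123CUG strain 1. ida-1 had 108.4, 107.9 and 102.5 CPM in 123CUG strain 1 and 85.9, 84.4 and 91.4 CPM in strain 2, against 83.7, 93.8 and 72.3 CPM in 0CUG strain 1 and 60.1, 64.7 and 79.41 CPM in strain 2 (0.38 ± 0.08, edgeR adjusted p = 0.00183). egl-21 had 154.6, 159.1 and 149.2 CPM in 123CUG strain 1 and 125.9, 133.2 and 127.0 CPM in strain 2, against 122.5, 134.5 and 121.8 CPM in 0CUG strain 1 and 107.4, 105.6 and 125.3 CPM in strain 2 (0.27 ± 0.06, edgeR adjusted p = 0.00461). In these genes too 123CUG strain 2 overlapped 0CUG strain 1. flp-4 had 16.6, 19.2 and 17.1 CPM in 123CUG strain 1 and 16.7, 19.4 and 19.2 CPM in strain 2, against 16.6, 16.4 and 15.1 CPM in 0CUG strain 1 and 12.4, 10.8 and 13.98 CPM in strain 2 (0.38 ± 0.10, edgeR adjusted p = 0.00999). Its 123CUG libraries lay at or above the highest 0CUG library, and 0CUG strain 2 was the lowest. egl-3 (0.22 ± 0.14) and unc-31 (0.21 ± 0.16) were not called.

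Beside these, 1 of 26 pan-neuronal genes rose and 0 fell between the constructs at L4 (median 0.13), 7 of 32 other neuropeptide genes rose and 3 fell (0.11), and 1 of 15 flp receptor genes rose. Yolk genes, 6 of 6 of which fell (median -1.40), summed to 1597 to 2574 CPM in 123CUG, against 4181 to 7637 CPM in 0CUG libraries, and 7 of 12 sperm genes fell (-1.04). Other genes that moved with stage did not separate the constructs. Moulting genes summed to 3075 to 3983 CPM in 123CUG, against 3036 to 3896 CPM in 0CUG libraries, with overlap. Sums of oocyte and embryo genes averaged 97.3 CPM in 123CUG strain 1 and 184.6 CPM in 123CUG strain 2. They averaged 221.7 CPM in 0CUG strain 1 and 129.5 CPM in 0CUG strain 2, which lay between the 123CUG strains. The part of a difference in stage between the constructs was not tested.

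In 2-day adults 1 of 31 members tested was higher in 123CUG and 3 were lower, where 5.74% of 14070 genes rose and 4.33% fell (edgeR adjusted p under 0.05), and 0 members rose or fell in all 4 strain pairs, where 0.192% and 0.22% of genes did. Single pairs called 27.6% and 15.3% of genes for 123CUG strain 1 against 0CUG strain 1 and strain 2, and 13.9% and 20.3% for 123CUG strain 2. All 4 calls were lost in several of the 12 fits that each left out 1 library. sbt-1 had 19.5, 15.7 and 12.9 CPM in 123CUG strain 1 and 33.6, 30.9 and 18.5 CPM in 123CUG strain 2, against 8.74, 12.2 and 15.6 CPM in 0CUG strain 1 and 13.3, 18.8 and 17.99 CPM in 0CUG strain 2 (0.57 ± 0.16, edgeR adjusted p = 0.0296). The groups overlapped, and the call held in 4 of the 12 fits, with an adjusted p of 0.0984 and a log2 difference of 0.48 without 0CUG strain 1 replicate 1. 123CUG strain 2 was called above both 0CUG strains (1.16 and 0.78) and strain 1 above neither (0.36 and -0.01).

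flp-7 had 1.45, 0.686 and 0.615 CPM in 123CUG strain 1 and 0.957, 0.919 and 0.108 CPM in 123CUG strain 2, against 1.40, 1.11 and 2.83 CPM in 0CUG strain 1 and 1.43, 4.04 and 2.16 CPM in 0CUG strain 2 (-1.43 ± 0.44, edgeR adjusted p = 0.0407). Its lowest library, 123CUG strain 2 replicate 3, held 3 reads. The groups overlapped through 1 library of 123CUG strain 1, and 6 of 12 fits kept the call, with -1.18 and an adjusted p of 0.141 without 0CUG strain 1 replicate 3. flp-6 differed by -0.27 ± 0.08 (edgeR adjusted p = 0.0431, called in 5 of 12 fits, and -0.21 with 0.140 without 0CUG strain 2 replicate 2), while its strain pairs ran between -1.40 and 0.86, so the direction depended on which strains were set together.

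flp-25 in adults rested on 1 strain of 0CUG. It had 0.927, 0.648 and 0.830 CPM in 123CUG strain 1 and 1.14, 0.552 and 0.108 CPM in 123CUG strain 2, against 0.179, 0.385 and 0.931 CPM in 0CUG strain 1 and 6.05, 8.29 and 5.04 CPM in 0CUG strain 2. 123CUG strain 2 replicate 3 held 3 reads of it. Only 0CUG strain 2 stood apart from the other 3 strains. The pooled log2 difference was -1.35 ± 0.42 (edgeR adjusted p = 0.0430, called in 3 of 12 fits, and -0.97 with 0.191 without 0CUG strain 1 replicate 3). It was -2.96 and -3.37 against 0CUG strain 2, and 0.67 and 0.25 against 0CUG strain 1, neither of which was called.

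**Figure D5:**
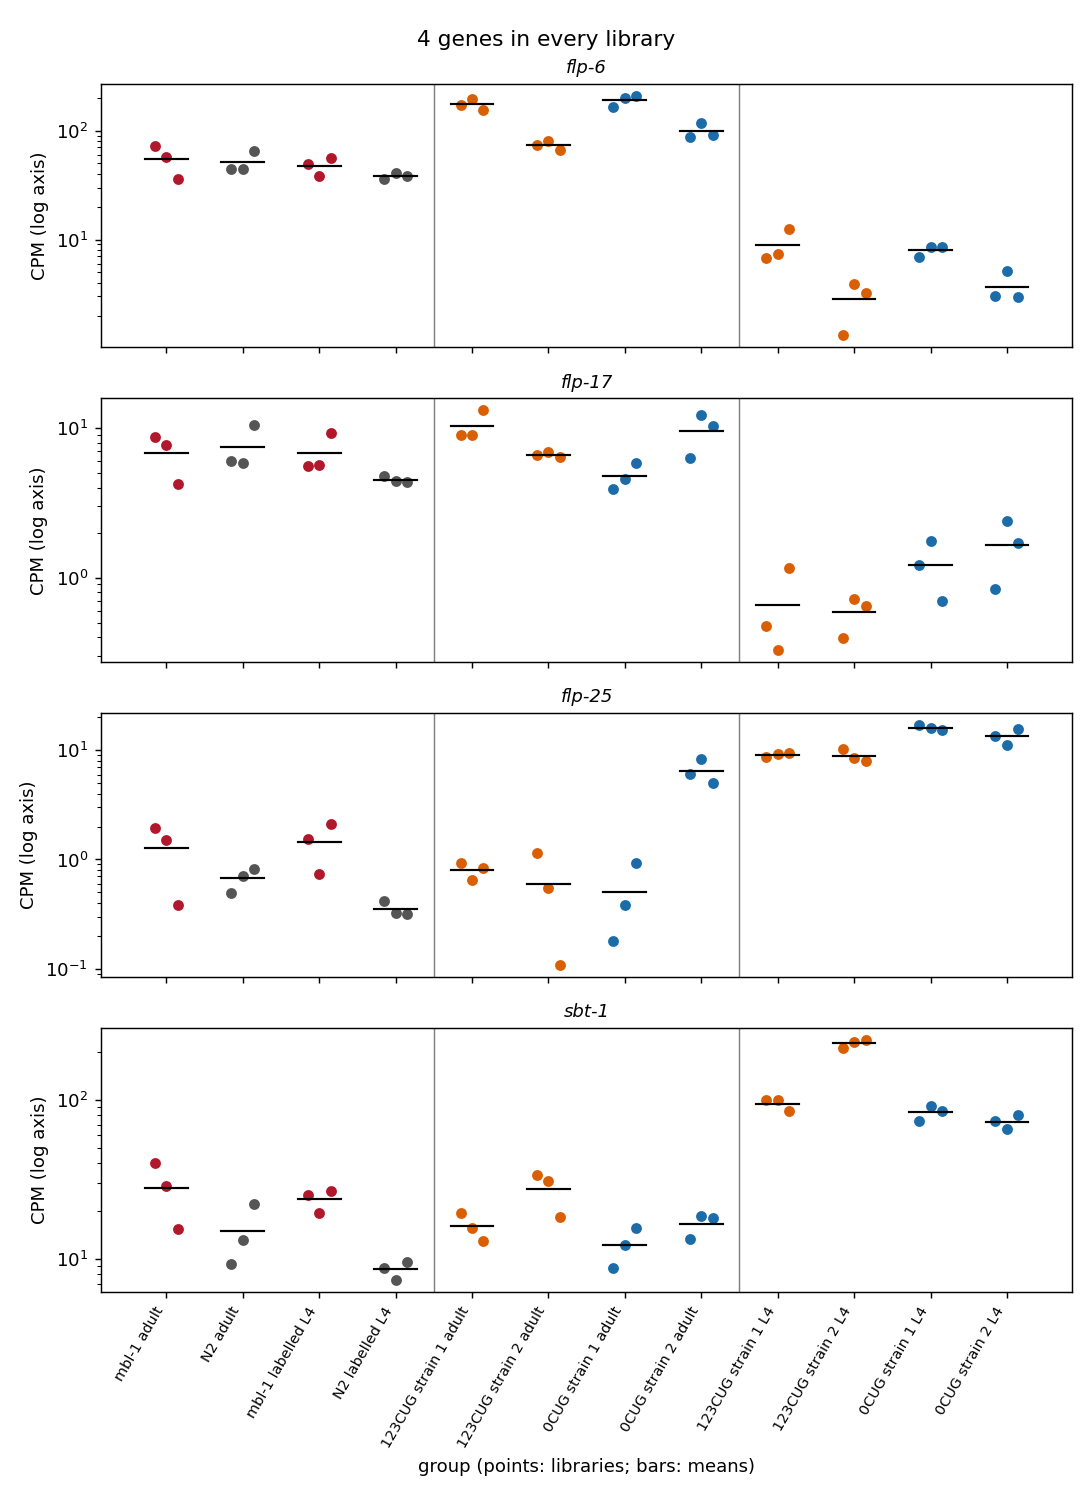
CPM of flp-6, flp-17, flp-25 and sbt-1 in every library (points, log axis), with group means (bars), by group. flp-6 and flp-17 are lowest in the 4 transgenic L4 groups, sbt-1 is highest in 123CUG strain 2 at L4, and flp-25 in 0CUG strain 2 adults stands above the other transgenic adults.

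The stage change itself differed between the constructs for 2 members, where 3.98% of 17248 genes tested differed upward and 1.95% downward. The flp-17 rise was larger in 123CUG strains by 1.46 ± 0.42 (edgeR adjusted p = 0.0337), and the flp-7 fall was larger there by -1.37 ± 0.38 (0.0345). Both stood near the threshold: the flp-17 call held in 8 and the flp-7 call in 10 of 24 fits that each left out 1 library. The flp-17 value was 1.27 (adjusted p 0.0870) without 0CUG strain 2 L4 replicate 2, and the flp-7 value -1.17 (0.0601) without 0CUG strain 2 adult replicate 2. For flp-6 the difference was -0.17 ± 0.26 and was not called.

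Strains that carry the same construct differed from each other. Between 123CUG strain 1 and strain 2 at L4, 4 members were higher in strain 1 and 1 was lower, where 4.9% of genes rose and 4.73% fell. flp-6 differed by 1.67 ± 0.34 (edgeR adjusted p = 0.00374), nlp-14 by 0.81 ± 0.18, flp-15 by 0.51 ± 0.10, egl-21 by 0.29 ± 0.09 and sbt-1 by -1.24 ± 0.10 (4.23e-08). The egl-21 call (edgeR adjusted p = 0.0349) held in 1 of 6 fits that each left out 1 library, with 0.28 and 0.128 without strain 2 replicate 3. It was also lost with no filter (0.0626) and with all 36 libraries in 1 fit (0.604). nlp-14 was not called without strain 1 replicate 1 (0.65, 0.0539). In adults flp-6 was higher in strain 1 by 1.23 ± 0.12 (5.35e-07) and sbt-1 lower by -0.79 ± 0.23 (0.0495, called in 2 of 6 fits that each left out 1 library, and -0.63 without strain 2 replicate 1), where 3.46% of genes rose and 1.93% fell. The values of each library are given above.

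Between 0CUG strain 1 and strain 2, 0 members were called at L4, where 1.18% of genes were (2379 at an unadjusted p under 0.05, and 1 member, flp-7, by DESeq2). flp-6 differed by 1.06 ± 0.33 there (edgeR adjusted p = 0.129). In adults flp-6 was higher in strain 1 by 1.03 ± 0.12 (1.12e-06), and flp-25 (-3.63 ± 0.60, 8.34e-05), flp-16 (-1.25), egl-21 (-0.93), flp-17 (-0.93), flp-10 (-0.71) and flp-22 (-0.57) were lower, where 22.3% of genes rose and 22.3% fell. flp-16 had 1.73, 1.497 and 2.06 CPM in strain 1 and 1.64, 4.76 and 6.90 CPM in strain 2, with overlap, and its call held in 2 of 6 fits, with -0.78 without strain 2 replicate 3. The flp-22 call was lost in the same 4 fits, with -0.48 (edgeR adjusted p = 0.106) without strain 2 replicate 2. egl-21 had 14.9, 16.5 and 17.1 CPM in strain 1 and 26.998, 33.95 and 36.9 CPM in strain 2, with no overlap. In these adults intestine genes (12 of 12 fell, median -1.45) and yolk genes (6 of 6 fell, -1.27) were lower in strain 1 as well, at sums of 2062 to 2367 and 61420 to 75640 CPM in strain 1, against 5532 to 6958 and 147400 to 179800 CPM in strain 2. Pan-neuronal genes summed to 404.6 to 422.1 CPM in strain 1, against 484.8 to 581.2 CPM in strain 2. Other neuropeptide genes summed to 314.3 to 382.4 CPM in strain 1, against 532.3 to 722.7 CPM in strain 2. Neurotransmitter genes were higher in strain 1, at 300.7 to 369.1 CPM, against 267.8 to 276.6 CPM in strain 2. The sums of flp receptor genes overlapped. The part of tissue makeup in the members' differences was not tested.

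flp-6 was thus higher in strain 1 than in strain 2 of both constructs in adults, with no overlap between the strains, and of 123CUG at L4. Adult strain 1 libraries lay between 156.0 and 209.3 CPM and adult strain 2 libraries between 66.8 and 117.7 CPM. The strain numbers follow the order of the labels. Strains that share a number also carry consecutively numbered transgenes, and whether they share an origin is not stated in the sources used here.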

How the data were processed

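Counts of reads per gene were deposited by the authors, with gene coordinates and lengths, in 10 tables per the file headers. Values of libraries that occur in several tables were equal in all 465954 cases. The submitters' processing notes name HISAT2, DESeq2 and WBcel235. For versions, the counting tool, the annotation and the strand setting, the sources used here give nothing. Loci without a name, 500 in all, held 0.0201% to 0.0643% of reads and were left out. Replicates differed by more than sampling noise in all 36 pairs.

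Counts were fitted with edgeR 4.0.16 in R 4.3.3 (TMM scaling, filterByExpr, robust quasi-likelihood F-test) over all genes that passed the filter, separately for mbl-1 with N2 and for the transgenic strains, 1 stage at a time or, for stage changes, both together, with Benjamini-Hochberg adjusted p under 0.05 as the call. The step was tested on simulated counts. CPM were computed on 1 TMM scale over 36 libraries, and symbols were matched for 24426 genes in RefSeq. Replicate numbers came from the labels and did not pair libraries: in 20 pairs of groups the correlations of deviations ran between -0.569 and 0.147, and 0 pairs had all above 0.1. The alternatives were DESeq2 1.42.0, RLE scaling, no filter, a replicate block, a fit of all 36 libraries and leaving out each library. Members and comparison lists were chosen with earlier results of these data known. Library values are printed for the 5 processing genes, the 3 flp genes with most CPM per kb, and in each comparison up to 4 called members with the largest rise and 4 with the largest fall, where the higher group averaged at least 1 CPM; other library values were chosen after they were seen. No sequences are printed.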

Additional observations from a re-analysis of the deposited data

Results flagged for a closer look

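The change between 2-day adults and L4 animals differed between 123CUG and 0CUG strains for flp-7 and flp-17. The log2 differences were -1.37 and 1.46, each by a test of the difference itself in edgeR. Of all 17248 genes tested, 3.98% differed upward and 1.95% downward. Both calls were lost in most fits that left out 1 library.

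The 2 strains that carry the 123CUG construct differed from each other for 5 members at L4 and 2 in adults. Of all genes tested, 4.9% were higher and 4.73% lower in strain 1 at L4, and 3.46% and 1.93% in adults. At L4 strain 1 against strain 2 gave 1.67 for flp-6, 0.51 for flp-15, 0.81 for nlp-14, 0.29 for egl-21 and -1.24 for sbt-1. In 2-day adults it gave 1.23 for flp-6 and -0.79 for sbt-1. The egl-21 call at L4 and the sbt-1 call in adults were lost in most fits that left out 1 library.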

How the results depend on the processing

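Over these comparisons 92 calls of members held under every alternative run and 27 did not, and of 1783 alternative values 1631 kept direction and call, the others kept direction but missed the threshold, and 0 turned round. Counts of called members that moved by more than 1.5 times were as follows. Between mbl-1 and N2 in 2-day adults, 0 became 1 with DESeq2, 5 with all 36 libraries in 1 fit and 27 without replicate 3 of both groups. Between 2-day adult and labelled L4 mbl-1 libraries, 0 became 6 without replicate 3 of the adults. With all 36 libraries in 1 fit, 123CUG against 0CUG gave 2 members at L4 and 1 in adults, the stage difference between constructs 1, the 123CUG strains 2 at L4 and 1 in adults, and the 0CUG strains 1 at L4. The 0CUG strains at L4 also gave 1 with DESeq2 and 1 with no filter. The cause of these moves was not tested. Leaving out 1 library at a time gave 27 to 30 members between mbl-1 and N2 labelled L4, 7 to 12 between constructs at L4 and 1 to 3 in adults, 29 to 31 and 29 to 30 for the stage changes in 123CUG and 0CUG strains, 0 to 2 for their difference, 3 to 6 and 1 to 2 for the 123CUG strains at L4 and in adults, and 5 to 9 for the 0CUG strains in adults.

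With the replicate block, although the numbers did not pair the libraries, 1 member in place of 2 was called for the stage difference between constructs and 1 in place of 2 between the 123CUG strains in adults. The calls lost were flp-7 (edgeR adjusted p = 0.0556) and sbt-1, with egl-21 between the 123CUG strains at L4 (0.0633) and flp-25 between constructs in adults (0.0547). It left 30 members called between mbl-1 and N2 labelled L4.

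Low counts limit flp-3, flp-4, flp-5, flp-7, flp-13, flp-17, flp-21, flp-25 and flp-32, each with fewer than 10 reads in at least 1 library. If reads were counted without regard to strand, antisense genes could alter the counts of flp-1, flp-2, flp-3 and flp-11, in a direction not known here. The remaining 27 members tested had a median of 1.42 between mbl-1 and N2 labelled L4. Each construct is represented by 2 insertions.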
